A study of Mus musculus with 18 samples.

Results

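The genes described here are named for subunits of the mitochondrial respiratory chain and ATP synthase, or for assembly factors of complex I, in a nuclear set and a mitochondrial set. Nuclear members were the rows of the expression table whose names start with Nduf, Uqcr or Atp5, are Sdha to Sdhd, or match Cox4 to Cox8 followed by a letter. The mitochondrial set was the mt-Nd, mt-Co, mt-Atp and mt-Cytb rows. Of 100 nuclear names in a table of 23899 genes, 6 were pseudogene names with -ps and 6 had a mean under 1 FPKM (fragments scaled to transcript length in kilobases and to library depth), which left 88 nuclear and 13 mitochondrial members. The member nearest the limit was Ndufaf7, with a mean of 9.03 FPKM over the 18 libraries, and the nearest name outside it was Cox4i2, a tissue isoform of complex IV, at 0.51 FPKM. 1 member, Ndufb4c, is annotated as a processed pseudogene although its name lacks -ps, and is counted here among the accessory subunits of complex I. By complex, the nuclear set held 45 genes of complex I, 4 of complex II, 8 of complex III, 14 of complex IV and 17 of complex V.

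The respiratory chain passes electrons from NADH (through complex I) and succinate (through complex II) to ubiquinone, complex III and cytochrome c, and then to oxygen at complex IV. Complexes I, III and IV pump protons across the inner mitochondrial membrane, and complex V, the ATP synthase, uses the gradient to make ATP. Most subunits are encoded in the nucleus and imported, whereas a core of hydrophobic subunits is encoded by mitochondrial DNA, which is transcribed from both strands as long precursor RNAs that are cut into single messages. Complex II has no mitochondrially encoded subunit. Leukaemia cells of the myeloid lineage are known to rely on oxidative phosphorylation.

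Poly(A) RNA was sequenced from cultured primary mouse leukaemia cells that all carried the MLL-AF9 fusion oncogene and Cas9 and grew in RPMI with serum, antibiotics and mouse interleukin-3. The 18 libraries formed 6 groups of 3: mock, a guide against Renilla luciferase as a control, and 4 guides against Jmjd1c named e12.3, e12.4, e20.1 or e21.1. The guides target the jumonji or zinc finger domain of JMJD1C, a protein of a histone demethylase family. The labels leave unsaid the domain each guide targets, the treatment of mock, and whether each library came from its own culture. The p-values therefore cover only the spread between these libraries, which may be technical.

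Depth estimated from the FPKM steps ran from 20700000 to 181900000 reads per library, with a median of 32000000, so that 1 FPKM of a 2 kb transcript stood for 41 to 364 reads. The targeted gene, Jmjd1c, was at 64.2 to 85.4 FPKM in the 6 control libraries and 42.2 to 74.4 FPKM in the 12 guide libraries, and its difference from Renilla did not pass the test (log2 -0.29, SE 0.13, limma adjusted p = 0.19). RNA level does not show whether a guide cut its target. All 12 myeloid markers looked at were expressed, from Meis1 at a mean of 34.9 FPKM to Prtn3 at 983 FPKM. Of the markers of other cell types, Alas2 and Cdh5 were at 0.00 FPKM on average, and only Gata1, Tfr2, Cd3d, Lck and Pdgfrb reached 1 FPKM, the highest being Tfr2 at 8.13 FPKM; none of these 5 was called between the guides and either control. In bulk RNA, fewer cells of a type and less RNA per cell cannot be told apart.

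Both sets were abundant. The nuclear members had a median of 154 FPKM, from Ndufaf7 at 9.03 to Atp5b, the catalytic beta subunit of ATP synthase, at 860 FPKM. The mitochondrial members had a median of 1803 FPKM, from mt-Nd6 at 118 to mt-Co2, a catalytic subunit of complex IV, at 7609 FPKM. FPKM is scaled by transcript length, but levels of different genes can be set side by side only roughly. Only polyadenylated RNA was sequenced, and reads may be divided between related genes. Within complex I, the 7 core subunits had a median of 86.4 FPKM and the 30 genes counted as accessory subunits one of 134 FPKM, while the 8 assembly factors, which build the complex and do not stay in it, had one of 17.5 FPKM. The medians of the nuclear genes of complexes II, III, IV and V were 137, 255, 333 and 274 FPKM.

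Nuclear members with closely related copies, such as Atp5g1, Atp5g2 and Atp5g3 (which encode the same mature c subunit of ATP synthase) or Ndufb4 and its annotated pseudogene Ndufb4c, may have had reads divided between them, and so may genes with processed pseudogenes. Among mitochondrial genes, mt-Atp8 and mt-Atp6 share 43 bases, mt-Nd4l and mt-Nd4 share 7, and mt-Nd5 and mt-Nd6, on opposite strands, share 14. The library kit was directional, but whether the quantification used strand is not given in the sources used here.

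2 libraries stood apart in the nuclear set and must be named before any comparison. Of the 88 nuclear members, 38 had their highest value of the 18 libraries in Renilla replicate 1 and 40 in e20.1 replicate 2. Together these libraries held the maximum of 78 members, or 88.6%, against 31.3% of all 11550 tested genes. The median nuclear member lay 0.32 log2 units above the mean of the 6 control libraries in Renilla replicate 1 and 0.37 above it in e20.1 replicate 2, and between -0.27 and 0.02 in the other 16 libraries. The same held in each complex of Renilla replicate 1, where the complex medians were 0.20 to 0.33, whereas in e20.1 replicate 2 complex II stood at 0.03 and the other complexes at 0.29 to 0.41. Summed FPKM was 812480 in Renilla replicate 1 and 899692 in e20.1 replicate 2, and 726542 to 747295 in the other controls. It was also high in e21.1 replicate 3, at 847581, where the median nuclear member lay at -0.09. As a share of summed FPKM, the nuclear members made up 2.66% in Renilla replicate 1 and 2.46% in e20.1 replicate 2. That share was 2.14 to 2.34% in the other controls. The part of the summed FPKM in these medians was not tested.

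Transcript length moved with the high nuclear medians of these libraries. The median coding-transcript length of nuclear members was 683 bases, and 63 of the 87 with a length were under 1000 bases, compared with a median of 2081 bases and 19.7% under 1000 bases among the other tested coding genes. In Renilla replicate 1 and e20.1 replicate 2, the other tested genes under 1000 bases stood at medians of 0.10 and 0.16 log2 units, and the longer ones at 0.00 and -0.07. The part of transcript length in the nuclear members' values was not tested.

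**Figure D1:**
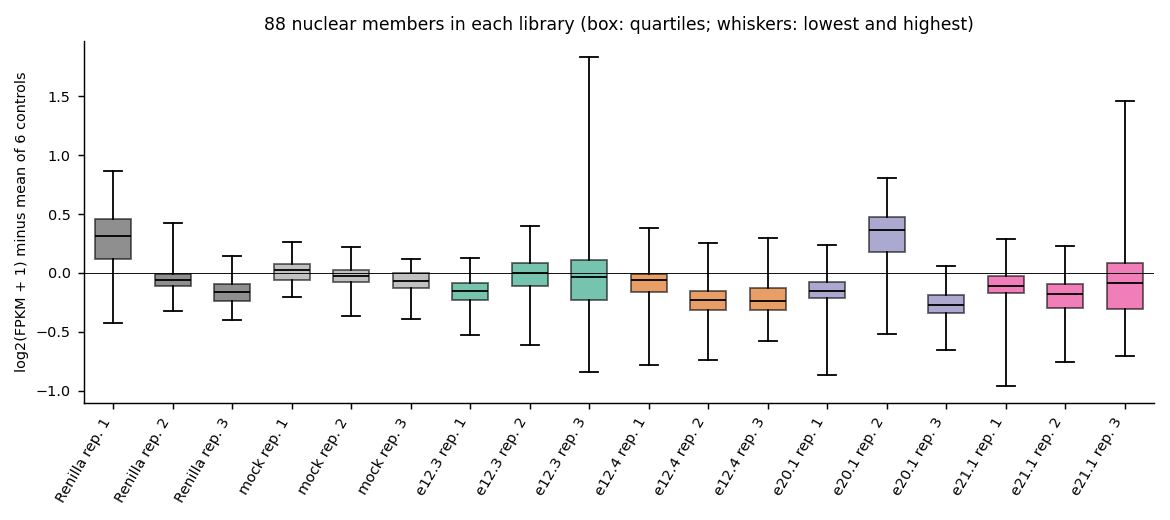
Box plots of the 88 nuclear members in each of the 18 libraries, as log2(FPKM + 1) minus the member's mean over the 6 control libraries (y axis, log2 units); boxes give quartiles, whiskers the lowest and highest member. The boxes of Renilla replicate 1 and e20.1 replicate 2 lie above 0 with medians of 0.32 and 0.37, and the high whiskers of the third libraries of e12.3 and e21.1 are Cox6a2.

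Against Renilla, the nuclear respiratory chain genes were slightly lower with the 4 Jmjd1c guides, and few of these differences passed the test. A gene counts as called at a Benjamini-Hochberg adjusted p under 0.05 in limma, fitted to log2(FPKM + 1) of the 11550 genes whose mean reached 1 FPKM. All 88 nuclear members passed that filter, 0 were called higher and 4 were called lower, 1 each from complexes I, II, III and V. Over all tested genes, 11.0% were called in this comparison, 7.77% higher and 3.21% lower. The median nuclear difference was -0.13 log2 units, with 77 of 88 members below 0, beside a median of -0.03 over all tested genes. Without Renilla replicate 1 no nuclear member was called, the median was 0.00 and 41 of 88 members were below 0, so the direction of the set against Renilla rested on that library. The count was also 0 without Renilla replicate 2, it was 2 without e12.3 replicate 1, e12.4 replicate 2 or e12.4 replicate 3, and it was 7 without e20.1 replicate 2. The share of all tested genes called was 7.05% without Renilla replicate 1 (1.17% lower) and 7.17% without Renilla replicate 2 (1.69% lower). It was 10.3, 9.66 and 9.62% without e12.3 replicate 1, e12.4 replicate 2 and e12.4 replicate 3, and 13% without e20.1 replicate 2 (4.25% lower).

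Against mock, which does not contain that library, 2 nuclear members were called lower and 0 higher. Over all tested genes 9.0% were called against mock, 6.84% higher and 2.16% lower. The median was -0.08, with 66 of 88 members below 0, beside -0.02 over all tested genes. The 2 comparisons share the 12 guide libraries, so their values are not independent. Leaving out 1 library moved the count against mock by over 1.5 times in 14 of 18 cases. It was 0 without mock replicate 1 or 2 and 4 without e20.1 replicate 2. It was 1 without Renilla replicate 2, mock replicate 3, e12.3 replicate 1 or 2, any replicate of e12.4, e20.1 replicate 1 or 3, or e21.1 replicate 1 or 2. The share of all tested genes called was 5.62 and 5.02% without mock replicate 1 and 2 (0.848 and 0.684% lower). It was 9.99% without e20.1 replicate 2 (2.62% lower), and 5.1 to 8.94% in the fits with a count of 1. Of the 12 myeloid markers, 3 were called higher against Renilla (Csf2rb, Itgam, Ptprc) and 4 lower (Mpo, Ms4a3, Ctsg, Prtn3), with Mpo at -2.09 log2 units, and the part of that shift in the members' values was not tested. The 2 controls were also compared with each other: mock lay at a nuclear median of -0.06 from Renilla, and limma called 0 of 11550 genes (127 had an unadjusted p under 0.05, and 0 of these were nuclear or mitochondrial members).

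Complex by complex, the nuclear medians against Renilla were -0.12 for complex I, -0.19 for complex II, -0.22 for complex III, -0.09 for complex IV and -0.19 for complex V. Against mock they were -0.06, -0.17, -0.12, -0.08 and -0.10. Without Renilla replicate 1 the medians against Renilla were 0.01, -0.04, -0.03, 0.01 and -0.03. The medians of complexes II, III and V were below 0 in all 3 settings. Those of complexes I and IV were below 0 against both controls with all libraries. Without Renilla replicate 1 they were at 0.01, where the other complexes were at -0.04 to -0.03, a narrow gap.

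**Figure D2:**
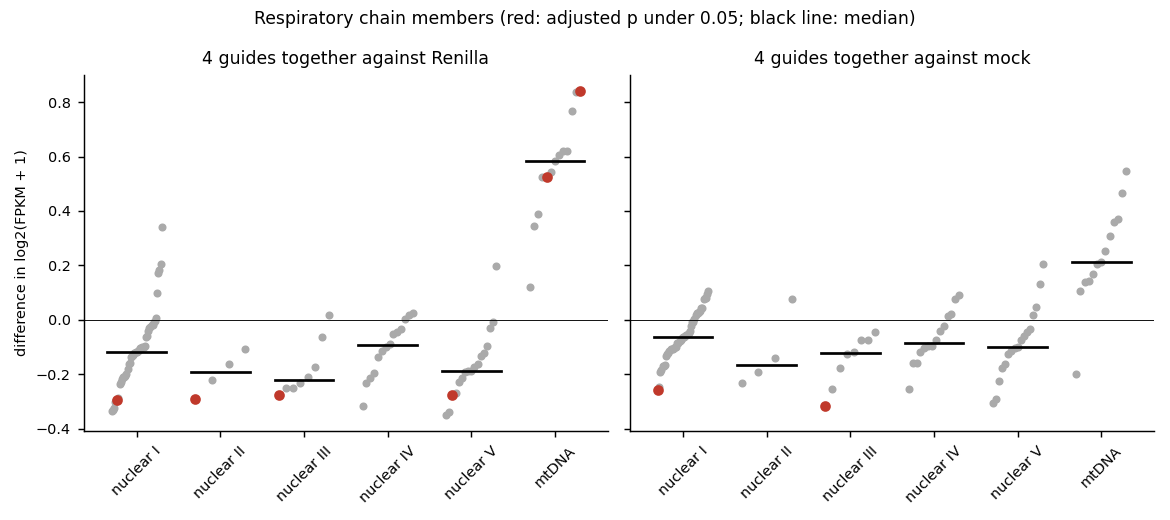
Each point is 1 member, and the y axis gives the difference in log2(FPKM + 1) of the 4 guides together from Renilla (left) and mock (right), by complex for nuclear members and in 1 column for the 13 mitochondrial members; red points passed limma at an adjusted p under 0.05 and black lines are medians. The nuclear medians lie between -0.22 and -0.06, and the mitochondrial median falls from 0.58 against Renilla to 0.21 against mock.

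Ndufs1 encodes the largest core subunit of complex I, an iron-sulphur protein of the arm that takes electrons from NADH, and lies on the minus strand at chr1:63143596-63176833 (GRCm38). Its FPKM was 79.1, 65.6 and 60.9 in the 3 Renilla libraries, in replicate order, and 68.7, 62.9 and 67.9 in mock. The 12 guide libraries ran from 48.8 to 65.7 FPKM with a median of 54.5. All 12 lay below the Renilla mean and the mock mean, and only the highest, e12.3 replicate 3, reached into the range of either control. The guide mean was 55.5 ± 4.13 FPKM (SD, n = 12) against 68.5 ± 9.44 (n = 3) with Renilla and 66.5 ± 3.14 (n = 3) with mock. Ndufs1 was called lower against both controls, with log2 differences of -0.29 (SE 0.08, limma adjusted p = 0.022) and -0.26 (SE 0.08, adjusted p = 0.0499). The call against Renilla was lost without Renilla replicate 1 (-0.19, limma adjusted p = 0.186) or 2 (-0.32, adjusted p = 0.0573). The call against mock sat at the threshold. It was lost without mock replicate 1, 2 or 3 (limma adjusted p = 0.219, 0.0972 and 0.217) and without any of 11 other libraries (Renilla replicate 2, e12.3 replicates 1 and 2, the 3 of e12.4, the 3 of e20.1, and e21.1 replicates 1 and 2; adjusted p = 0.0533 to 0.0819), and held without Renilla replicate 1, Renilla replicate 3, e12.3 replicate 3 or e21.1 replicate 3.

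Sdha encodes the flavoprotein of complex II, which oxidises succinate and also takes part in the tricarboxylic acid cycle; it lies on the minus strand at chr13:74322254-74350280. Its values were 155.7, 132.2 and 117.3 FPKM with Renilla, 141.0, 127.6 and 118.8 FPKM with mock, and 102 to 123.3 FPKM (median 109) in the guide libraries. Each of the 12 guide libraries was below both control means, and the ranges overlapped only through the guide library at 123.3 FPKM, e12.3 replicate 1. Sdha was called lower against Renilla (log2 -0.29, SE 0.08, limma adjusted p = 0.026) but not against mock (-0.23, SE 0.08, adjusted p = 0.088). Without Renilla replicate 1 or 2 the call against Renilla was lost (-0.18 and -0.30, limma adjusted p = 0.207 and 0.0815), while without Renilla replicate 1, which changes only the shared estimate of spread there, the difference from mock was called (adjusted p = 0.0385). The call against Renilla was also lost after rescaling without mitochondrial rows (-0.29, limma adjusted p = 0.0719).

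Uqcrc1 encodes a core protein of complex III and lies on the plus strand at chr9:108936633-108949623. It was at 252.9, 220.0 and 187.7 FPKM with Renilla, at 231.7, 236.0 and 208.8 FPKM with mock, and at 160 to 220.0 FPKM (median 176) with the guides. The 3 libraries of e12.3 entered the Renilla range, and its replicate 3, the highest guide library, also entered the mock range. Uqcrc1 was called lower against Renilla (log2 -0.28, SE 0.08, limma adjusted p = 0.038) and against mock (-0.32, SE 0.08, adjusted p = 0.020), 17.8 and 19.7% below the 2 control means. The call against mock was lost without mock replicate 1 (-0.30, limma adjusted p = 0.114) or 2 (-0.28, adjusted p = 0.140) and held in each of the other 29 alternatives tried. The call against Renilla was lost in 14 of 32, among them the fits leaving out Renilla replicate 1 (-0.17, adjusted p = 0.265) or 2 (-0.27, adjusted p = 0.127). Leaving out mock replicate 1, e12.3 replicate 1 or 2, e12.4 replicate 2 or 3, e20.1 replicate 3 or e21.1 replicate 2 also ended it, at limma adjusted p = 0.0524 to 0.0632.

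Atp5a1 encodes the alpha subunit of the F1 head of ATP synthase. It stood at 549.5, 447.6 and 415.2 FPKM with Renilla, at 439.9, 440.0 and 415.8 FPKM with mock, and at 356 to 438 FPKM (median 388) with the guides. Renilla replicate 1 was the highest of the 18 libraries, and the guide range overlapped both controls. It was called against Renilla (log2 -0.28, SE 0.08, limma adjusted p = 0.033) and not against mock (-0.16, SE 0.08, adjusted p = 0.25). Without Renilla replicate 1 or 2 the difference from Renilla was -0.16 or -0.31 (limma adjusted p = 0.241 and 0.0702), and the call was also lost without e12.3 replicate 1, e12.4 replicate 2 or e12.4 replicate 3 (adjusted p = 0.0509, 0.0552 and 0.0574).

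Its partner in the F1 head, Atp5b, was at 920.9, 926.3 and 920.0 FPKM with Renilla and 960.7, 962.2 and 944.7 with mock. The guide libraries ran from 671 to 921 FPKM with a median of 812. All 12 lay below the 3 mock libraries, the only nuclear member of the 88 (1.14%) to do so, where 3.41% of all tested genes did; 0 of 88 lay below all 3 Renilla libraries, where 2.98% of tested genes did. Even so Atp5b was not called against mock for the 4 guides together (log2 -0.22, SE 0.07, limma adjusted p = 0.081) or against Renilla (-0.17, SE 0.07, adjusted p = 0.17). It was called lower with e21.1 against mock (-0.34, SE 0.09, adjusted p = 0.041).

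**Figure D3:**
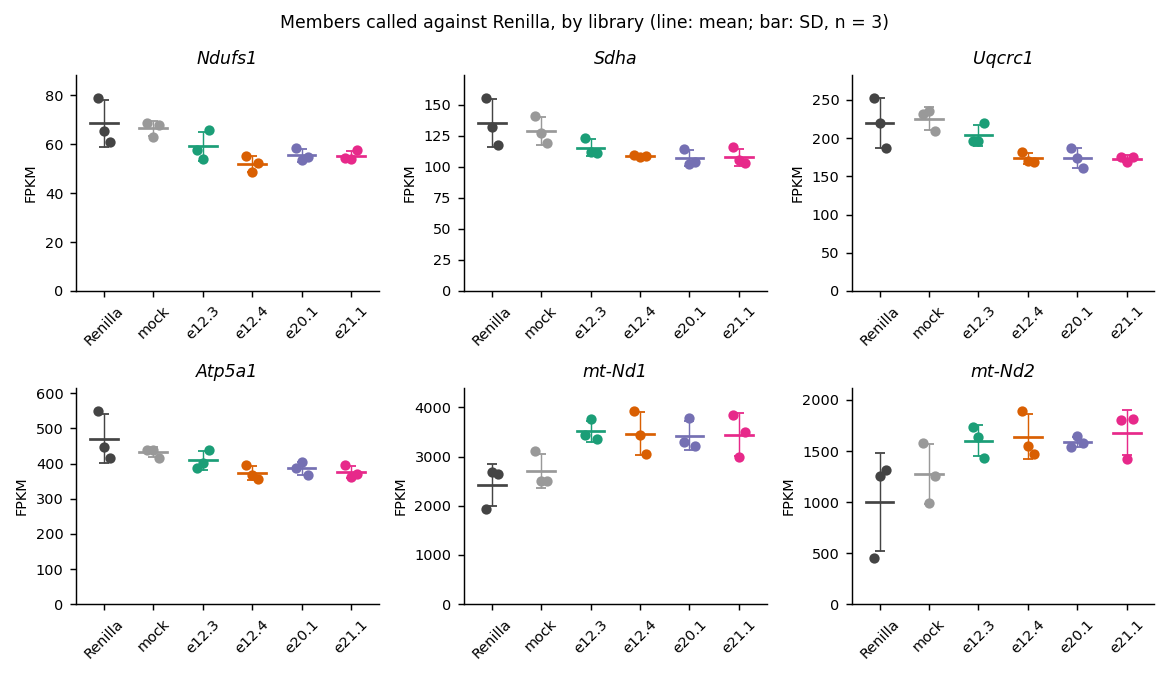
FPKM (y axis, from 0) of the 4 nuclear and 2 mitochondrial members called against Renilla, in the 3 libraries of each of the 6 groups; horizontal lines are means and bars SD (n = 3). Ndufs1, Sdha, Uqcrc1 and Atp5a1 have their highest value of all libraries in Renilla replicate 1, where mt-Nd1 and mt-Nd2 have their lowest, 1940 and 450 FPKM.

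The promoters of 2 of these genes, Sdha and Uqcrc1, are shown because nuclear respiratory chain genes are known for binding sites of NRF1, a transcription factor of such genes, in their promoters. The sequences are from RefSeq (GRCm38.p6), 250 bases before to 50 after the listed start, read 5′ to 3′ on the gene's strand, with capitals marking matches of the NRF1 motif (GCGC, any base, TGCGC) on either strand.
Sdha, chr13:74350191-74350490, minus strand: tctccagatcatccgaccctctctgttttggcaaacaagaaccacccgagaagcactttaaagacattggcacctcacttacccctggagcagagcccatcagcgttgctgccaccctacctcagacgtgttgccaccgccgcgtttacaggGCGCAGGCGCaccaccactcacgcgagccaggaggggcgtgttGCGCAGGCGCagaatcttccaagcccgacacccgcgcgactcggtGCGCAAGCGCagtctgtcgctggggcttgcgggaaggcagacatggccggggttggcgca
Uqcrc1, chr9:108936398-108936697, plus strand: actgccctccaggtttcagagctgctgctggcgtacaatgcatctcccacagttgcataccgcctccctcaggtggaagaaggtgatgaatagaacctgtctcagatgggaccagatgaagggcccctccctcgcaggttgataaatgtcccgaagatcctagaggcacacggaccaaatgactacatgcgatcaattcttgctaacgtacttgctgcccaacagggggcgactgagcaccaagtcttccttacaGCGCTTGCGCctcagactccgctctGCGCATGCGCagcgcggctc
The Sdha window held 3 matches, beginning 98, 55 and 10 bases before the start, and the Uqcrc1 window 2, beginning 5 and 30 bases after it.

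Promoters were listed for 71 of the 88 nuclear members; Ndufs1 and Atp5a1 were not among them. The NRF1 motif, searched on both strands, was in 18 of the 71 windows (25.4%), compared with 11.8% of 8454 promoters of tested genes and 4.78% of 27025 promoters in all. CCGGAAG, a core motif of the factor GABPA, was in 23.9% of members' windows, 20.7% of tested genes' and 9.12% of all. AAGATGGCG, a YY1 motif, was in 9.86%, 3.73% and 1.49%. A match is a description of the letters and not evidence of binding.

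The remaining nuclear members were not called in either comparison of the 4 guides. Within complex I, the other members ran from Ndufab1, the mitochondrial acyl carrier protein, at -0.33 log2 units against Renilla (SE 0.15, limma adjusted p = 0.17) to Ndufa1, an accessory membrane subunit, at 0.34 (SE 0.15, adjusted p = 0.17). Both rested on Renilla replicate 1: Ndufab1 was at 224.9 FPKM there and at 149.2 and 129.0 in the other Renilla libraries, and Ndufa1 was at 90.0 FPKM there and at 122.0 and 122.5 in the others. Against mock the 2 genes were at -0.19 (adjusted p = 0.51) and 0.08 (adjusted p = 0.83). Ndufv1, the core subunit that binds NADH, was at -0.22 and -0.17 log2 units against Renilla and mock (SE 0.12, limma adjusted p = 0.29 and 0.47). The assembly factors had medians of -0.17 and -0.11, with Ndufaf4 lowest against Renilla at -0.33 (adjusted p = 0.063) and -0.17 against mock (adjusted p = 0.42).

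In complex II, Sdhb, the iron-sulphur subunit, was at -0.16 log2 units against Renilla and 0.08 against mock (SE 0.14, limma adjusted p = 0.53 and 0.81), and Sdhd, a membrane anchor, at -0.11 and -0.14 (SE 0.10). In complex III, Uqcrfs1, the Rieske iron-sulphur protein, was at -0.17 and -0.08 (SE 0.13), and Uqcrc2, the other large core protein, at 0.02 and -0.12 (SE 0.10). All 5 accessory subunits of complex III were below 0 against both controls, with medians of -0.23 and -0.12.

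The 11 ubiquitous subunits of complex IV had medians of -0.09 against Renilla and -0.10 against mock, and 0 were called. Cox4i1, which is needed for assembly of the complex, was at 0.02 and 0.08 log2 units (SE 0.13, limma adjusted p = 0.96 and 0.81), Cox5a at -0.20 and 0.01 (SE 0.15) and Cox8a, a small membrane subunit, at 0.03 and -0.16 (SE 0.10). That they missed the threshold does not show that their levels were equal.

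Cox6a2 and Cox7a1 are isoforms best known from heart and skeletal muscle, and both passed the filter in these leukaemia cells at low levels. Cox6a2 was at 12.5, 15.6 and 13.7 FPKM with Renilla and at 11.6, 13.6 and 14.7 FPKM with mock. In 10 of the 12 guide libraries it was at 6.5 to 9.2 FPKM, below every control, but it reached 50.8 FPKM in replicate 3 of e12.3 and 39.1 FPKM in replicate 3 of e21.1. It had the widest spread of the nuclear members (coefficient of variation 83.3% over 18 libraries, against a median of 15.7%). With all libraries its difference from Renilla was -0.32 (SE 0.46, limma adjusted p = 0.72); without those 2 libraries it was -0.71 (SE 0.10, adjusted p = 1.59e-04) against Renilla and -0.65 (SE 0.10, adjusted p = 3.65e-04) against mock. The same 2 libraries had the highest guide values of Mpo, the granule enzyme myeloperoxidase, at 1025 and 664 FPKM, where the other guide libraries had 133 to 384 FPKM. These libraries were left out after their values had been seen, so the call without them is not independent evidence. Cox7a1 was at 17.9, 12.1 and 9.0 FPKM with Renilla and at 6.2 to 18.9 FPKM with the guides, and was not called (-0.10, SE 0.23, limma adjusted p = 0.84).

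In complex V, the 11 membrane and stalk subunits had medians of -0.19 against Renilla and -0.10 against mock. The extremes against Renilla were Atp5mpl, a small membrane subunit, at -0.35 (SE 0.18, limma adjusted p = 0.24) and Atp5j, the coupling factor of the stalk, at 0.20 (SE 0.10, adjusted p = 0.24). Atp5mpl was at 568.2 FPKM in Renilla replicate 1 and at 307.8 and 279.1 in the other Renilla libraries. Atp5j was at 189.8 FPKM in that library, its lowest of the 18, and at 242.8 and 232.6 in the others. Against mock these genes were at -0.11 and -0.03 log2 units.

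Guide by guide, with all groups in 1 fit, few members were called. Against Renilla, limma called 1 nuclear member lower with e12.4 (Ndufs1, log2 -0.38, SE 0.10, adjusted p = 0.026; 7.09% of all tested genes called, 5.57% higher and 1.52% lower). It called 0 with e12.3 (3.20% of all genes, 3.03% higher and 0.173% lower), e20.1 (5.68%, 4.61% higher and 1.06% lower) and e21.1 (9.51%, 7.06% higher and 2.45% lower). At an unadjusted p under 0.05, 14, 3, 8 and 10 members passed with e12.4, e12.3, e20.1 and e21.1 (15.9, 3.41, 9.09 and 11.4% of the 88), where 20, 13.3, 18 and 23% of all tested genes did. Against mock it called 2 with e12.4 (Ndufs1 at -0.35, Uqcrc1 at -0.38; 6.48% of all genes, 5.22% higher and 1.26% lower), 1 with e20.1 (Uqcrc1 at -0.37; 5.32%, 4.41% higher and 0.909% lower), 2 with e21.1 (Uqcrc1 at -0.38 and Atp5b; 7.26%, 5.91% higher and 1.35% lower) and 0 with e12.3 (2.94%, 2.82% higher and 0.121% lower; 0 members had an unadjusted p under 0.05). The nuclear medians against Renilla were -0.10, -0.22, -0.07 and -0.16 for e12.3, e12.4, e20.1, e21.1 in turn, and -0.07, -0.15, 0.01 and -0.12 against mock. A test for any difference among the 4 guides called 0 of 11550 genes (238 with an unadjusted p under 0.05, 0 of them members), so a call with 1 guide and not another was not shown to be a difference between guides. The guides share their controls. Fitted on its own groups alone, e12.4 against mock gave 19 nuclear calls, all lower, and 4 mitochondrial calls, all higher. In that fit 2318 of 11550 tested genes were called, 11.4% higher and 8.69% lower. All 3 same-number pairs of e12.4 with either control correlated above 0.1. With the replicate number as a block, the nuclear counts for e12.4 were 4 against Renilla (10.4% of all genes) and 3 against mock (9.32%). With that block they were 2 (8.56%) and 2 (7.84%) for e20.1, and 8 (14.3%) and 4 (10.3%) for e21.1. Same-number pairs with Renilla correlated at -0.248 to 0.368 for e20.1 and at -0.043 to 0.084 for e21.1. With mock they correlated at 0.014 to 0.126 and at 0.034 to 0.198. Without the block, leaving out each library in turn moved the counts to 0 to 6 (e12.4), 0 to 2 (e20.1) and 0 to 4 (e21.1) against Renilla. Against mock they moved to 0 to 3, 0 to 1 and 0 to 3. In those fits 4.25 to 8.95, 3.46 to 6.96 and 6.74 to 11.1% of all genes were called against Renilla. The shares against mock were 3.83 to 7.89, 3.01 to 6.49 and 4.48 to 8.65%. The e20.1 medians contained e20.1 replicate 2, in which most nuclear members stood high.

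By guide and complex, the e12.4 medians against Renilla were -0.22 (complex I), -0.27 (II), -0.32 (III), -0.13 (IV) and -0.24 (V), and against mock -0.14, -0.23, -0.21, -0.09 and -0.16. Those of e21.1 were -0.11, -0.19, -0.26, -0.12 and -0.24 against Renilla and -0.07, -0.16, -0.19, -0.11 and -0.14 against mock. With e12.3 they lay between -0.15 and -0.07 against Renilla and between -0.12 and -0.03 against mock. With e20.1 they lay between -0.14 and 0.03 against Renilla and between -0.13 and 0.07 against mock. No nuclear complex therefore had a median beyond 0.32 log2 units with any guide.

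The mitochondrially encoded genes went the other way. Against Renilla all 13 were above 0 with the 4 guides, at a median of 0.58 log2 units, and 2 were called higher, mt-Nd1 and mt-Nd2. The median over all tested genes was -0.03, and 7.77% of all genes were called higher. Against mock 12 of 13 were above 0, at a median of 0.21, and limma called 0 (1 had an unadjusted p under 0.05). Mock itself stood at a median of 0.32 from Renilla, with 12 of 13 genes above 0 and 0 called.

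mt-Nd1 and mt-Nd2 encode subunits of the membrane arm of complex I and lie next to each other at chrM:2751-3707 and chrM:3914-4951. mt-Nd1 was at 1940, 2691 and 2639 FPKM with Renilla, at 3110, 2495 and 2504 with mock, and at 2981 to 3924 (median 3430) with the guides. mt-Nd2 was at 450, 1252 and 1310 FPKM with Renilla, at 1576, 991 and 1260 with mock, and at 1422 to 1892 (median 1607) with the guides. For both genes all 12 guide libraries lay above all 3 Renilla libraries, as for 6.26% of tested genes, and overlapped mock only through mock replicate 1. No member lay above all 3 mock libraries (6.52% of tested genes).

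The guide mean of mt-Nd1 was 3462 ± 311 FPKM (SD, n = 12), 42.8% above the Renilla mean of 2424 ± 420 and 28.1% above the mock mean of 2703 ± 352 (n = 3 each). Its log2 differences were 0.52 (SE 0.13, limma adjusted p = 0.012) against Renilla and 0.36 (SE 0.13, adjusted p = 0.095) against mock. For mt-Nd2 they were 0.84 (SE 0.24, limma adjusted p = 0.031) and 0.37 (SE 0.24, adjusted p = 0.42). Both calls were lost without Renilla replicate 1, at 0.37 (limma adjusted p = 0.109) for mt-Nd1 and 0.34 (adjusted p = 0.220) for mt-Nd2. In that setting no mitochondrial gene was called, all 13 stayed above 0 and their median was 0.19, close to the 0.21 found against mock.

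Renilla replicate 1 was the lowest of the 18 libraries for all 12 genes read from the heavy-strand promoter, and the size of the deficit differed along the genome. Relative to the mean of the other 2 Renilla libraries, it stood at 72.8% for mt-Nd1, 35.1% for mt-Nd2, 66.3% for mt-Co1 and 72.9% for mt-Co2. It stood at 35.2% for mt-Atp8, 46.5% for mt-Atp6, 52.9% for mt-Co3 and 49.9% for mt-Nd3. The deepest deficits were in the neighbours mt-Nd4l (424 FPKM, 24.8%) and mt-Nd4 (273 FPKM, 21.6%), followed by mt-Nd5 (265 FPKM, 33.5%). mt-Cytb stood at 710 FPKM, or 42.2%. mt-Nd6, the only member read from the other strand, was at 104 FPKM there against a mean of 104 in the other 2, or 101%, and ranked 7th from the lowest. The same library held the highest values of 38 nuclear members, as described above.

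**Figure D4:**
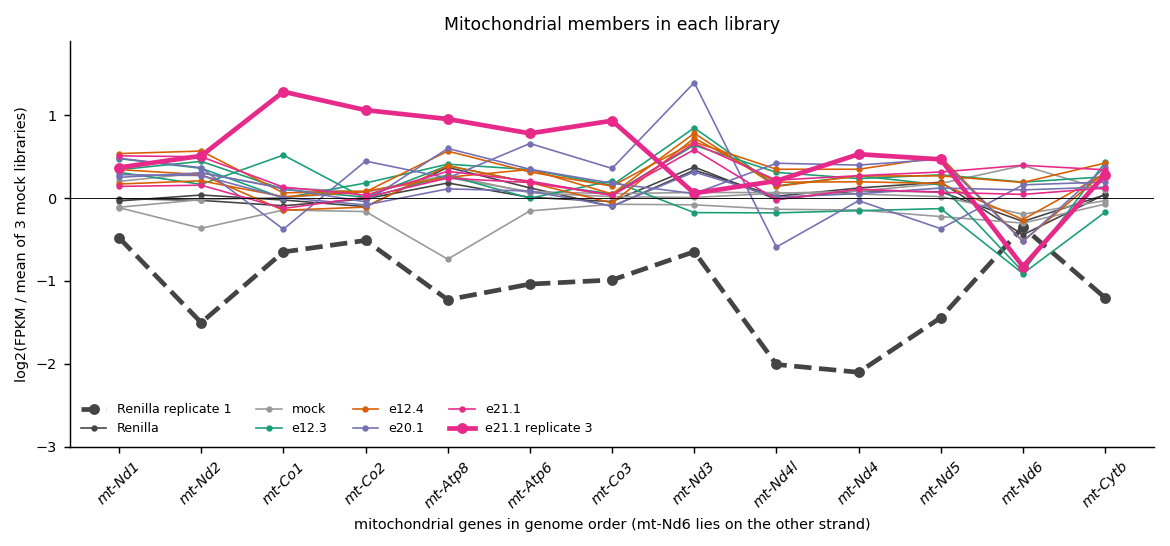
The 13 mitochondrial genes in genome order (x axis) in each of the 18 libraries, as log2 of FPKM over the mean of the 3 mock libraries (y axis); each line is 1 library, and Renilla replicate 1 (dashed) and e21.1 replicate 3 (thick) are marked. Renilla replicate 1 lies lowest for all genes but mt-Nd6 and drops furthest at mt-Nd4l and mt-Nd4, and e21.1 replicate 3 lies highest from mt-Co1 to mt-Co3.

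e21.1 replicate 3 stood apart in the other direction. It held the highest value of 6 mitochondrial members, with mt-Co1 at 16815 FPKM, mt-Co2 at 14894, mt-Co3 at 8833, mt-Atp8 at 9435, mt-Atp6 at 9394 and mt-Nd4 at 1694 FPKM, where the other 11 guide libraries had mt-Co1 at 5324 to 9896 FPKM. In the same library mt-Nd3 (994 FPKM), mt-Cytb (1990 FPKM) and mt-Nd6 (75 FPKM) lay within the range of the other guide libraries. e20.1 replicate 2 had the highest mt-Nd3 (2509 FPKM) of all libraries and, among guide libraries, the lowest mt-Co1 (5324 FPKM), mt-Nd4l (1132 FPKM) and mt-Nd5 (558 FPKM). Single libraries thus differed in the profile along the mitochondrial genome as well as in its overall level.

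For the complex IV genes, the log2 differences of the 4 guides from Renilla were 0.39 for mt-Co1, 0.35 for mt-Co2 and 0.54 for mt-Co3, and from mock 0.14, 0.14 and 0.17. mt-Atp6 and mt-Atp8, of complex V, were at 0.61 and 0.62 from Renilla and at 0.31 and 0.47 from mock. mt-Cytb, the only mitochondrial subunit of complex III, was at 0.62 and 0.25. Among the other complex I genes, mt-Nd3, mt-Nd4, mt-Nd4l and mt-Nd5 were at 0.52, 0.84, 0.77 and 0.58 from Renilla and at 0.55, 0.21, 0.10 and 0.20 from mock. mt-Nd6 was at 0.12 and -0.20, the only member of the 13 below 0 in either comparison. None of these passed the test. Leaving out 1 library added calls against Renilla: mt-Cytb without Renilla replicate 2, Renilla replicate 3 or e12.3 replicate 3 (limma adjusted p = 0.0364, 0.0330 and 0.0356), and mt-Nd4 and mt-Atp6 without Renilla replicate 3 (adjusted p = 0.0429 each).

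Per guide, limma called 0 of 13 mitochondrial members against either control, where 2.94 to 9.51% of all tested genes were called. Unadjusted p-values under 0.05 were found for 3, 7, 4 and 8 members with e12.3, e12.4, e20.1, e21.1 in turn against Renilla, and for 1, 2, 1 and 1 against mock. Of all tested genes, 13.3, 20, 18 and 23% passed at that level against Renilla and 10.7, 18.2, 17.4 and 19.3% against mock. The medians were 0.51, 0.63, 0.54 and 0.69 against Renilla and 0.17, 0.29, 0.15 and 0.35 against mock. For mt-Nd1 the 4 guides were at 0.55, 0.52, 0.51 and 0.51 against Renilla and 0.38, 0.36, 0.35 and 0.35 against mock.

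As a share of summed FPKM, the 13 mitochondrial genes made up 2.62% in Renilla replicate 1, 5.43 and 5.61% in the other Renilla libraries and 4.65 to 5.72% in mock. In the guide libraries the share was 5.35 to 8.54%, and e21.1 replicate 3 was the highest. The guide range overlapped the 5 other controls. The 88 nuclear members made up 2.66% in Renilla replicate 1, 2.14 to 2.34% in the other controls and 1.87 to 2.46% (median 2.09%) in the guide libraries, where e20.1 replicate 2 was the highest. The ratio of the mitochondrial to the nuclear sum was 0.98 in Renilla replicate 1, 1.99 to 2.63 in the other 5 controls and 2.18 to 4.56 (median 2.84) with the guides. FPKM is scaled to library depth, and polyadenylated RNA alone was sequenced, so neither value is an amount per cell. Summed FPKM also differed between libraries, from 726542 in Renilla replicate 3 to 899692 in e20.1 replicate 2. The main fit took FPKM without rescaling to that sum.

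**Figure D5:**
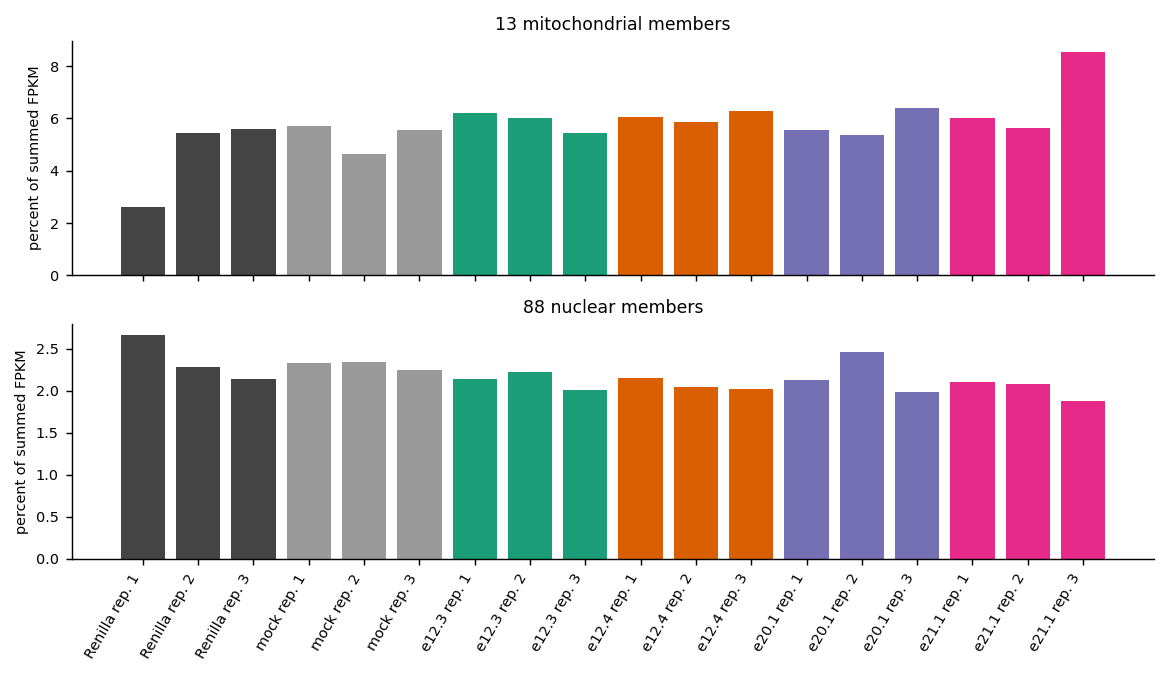
Percent of summed FPKM (y axes, from 0) taken by the 13 mitochondrial members (top) and the 88 nuclear members (bottom) in each library. Renilla replicate 1 has the lowest mitochondrial share, 2.62%, and the highest nuclear share, 2.66%, of the 18 libraries, and e21.1 replicate 3 has the highest mitochondrial and the lowest nuclear share, 8.54 and 1.87%.

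Other genes of the pathway were looked at from lists of general knowledge, beside the same 3.21% of genes called lower and 7.77% called higher against Renilla. Counts against mock stand beside 2.16% lower and 6.84% higher. Counts against Renilla without Renilla replicate 1 stand beside 1.17% lower and 5.88% higher. Of 42 assembly factors outside the name rule, 5 were called lower against Renilla and 0 higher, at a median of -0.14. They were Sco1 and Cox10, which act in copper delivery and haem A synthesis for complex IV, Cox18, which inserts its subunit 2, Uqcc1, of complex III, and Atpaf1, of the F1 head. Sco1 was at 12.7, 13.04 and 12.5 FPKM with Renilla, at 11.6, 14.0 and 12.2 with mock and at 9.3 to 11.2 with the guides, and the guides lay below every control. It was called against both controls, at -0.33 and -0.31 log2 units (SE 0.07, limma adjusted p = 0.0048 and 0.0081), as was Uqcc1 at -0.41 and -0.34 (SE 0.09, adjusted p = 0.0054 and 0.020). Without Renilla replicate 1, 2 of the 42 were called lower, one of them Sco1 (-0.34, limma adjusted p = 0.025), and Uqcc1 was not (-0.33, adjusted p = 0.057).

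Of 32 genes of mitochondrial DNA maintenance, transcription and RNA handling, 5 were called lower against Renilla and 0 higher, at a median of -0.16. Supv3l1, the helicase of the mitochondrial RNA degradosome, was at 31.8, 19.1 and 24.5 FPKM with Renilla, at 21.7, 18.8 and 19.4 with mock and at 14.0 to 18.4 with the guides. Its difference was -0.60 (SE 0.11, limma adjusted p = 0.0015) against Renilla, -0.31 (adjusted p = 0.093) against mock and -0.43 (adjusted p = 0.015) without Renilla replicate 1. The other 4 were Fastkd2 (-0.59), Lrpprc (-0.43), Polrmt, the mitochondrial RNA polymerase (-0.41), and Ptcd3, of the mitochondrial ribosome (-0.29). Lrpprc stabilises mitochondrial messages and was at 44.6, 32.5 and 30.7 FPKM with Renilla, at 34.5, 33.1 and 31.3 with mock and at 23.9 to 32.8 with the guides. Against mock 3 of the 32 were called lower, Ptcd3 (-0.31), Fastkd1 (-0.46) and Fastkd5 (-0.35), and without Renilla replicate 1 the count against Renilla was 2, Ptcd3 and Supv3l1.

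All 20 enzymes of the tricarboxylic acid cycle list were below 0 against both controls, at medians of -0.17 each. Against Renilla 4 were called lower, among them Dld, Suclg2 and Pcx (pyruvate carboxylase, which feeds the cycle), and against mock 3, Dld and Suclg2 among them. Dld, the shared dihydrolipoamide dehydrogenase of the mitochondrial ketoacid dehydrogenases, was at 86.9 to 93.9 FPKM in the 6 controls and at 66.0 to 79.6 with the guides. It was called against both, at -0.31 and -0.29 log2 units (SE 0.06, limma adjusted p = 0.0032 and 0.0059), and was the only one of the list called without Renilla replicate 1 (-0.28, adjusted p = 0.024). In that setting 17 of the 20 were below 0, at a median of -0.08.

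Of 20 respiratory chain genes outside the name rule (cytochrome c, coenzyme Q synthesis and other enzymes that feed ubiquinone), 2 were called higher against Renilla. Sqor, which passes electrons from sulphide to ubiquinone, was at 14.4, 10.7 and 8.2 FPKM with Renilla, at 11.6, 10.7 and 9.6 with mock and at 18.9 to 35.2 with the guides, all above every control. It rose by 1.00 log2 units against Renilla and 1.03 against mock (SE 0.18, limma adjusted p = 0.0015 and 0.0013) and by 1.19 without Renilla replicate 1 (adjusted p = 0.0016). Coq8a, a kinase-like protein of coenzyme Q synthesis, was called against Renilla only (0.71, SE 0.19, adjusted p = 0.026; 0.52 and adjusted p = 0.12 against mock), at levels of 1.2 to 3.9 FPKM. Coq4, also of coenzyme Q synthesis, was called lower against mock only (-0.36, SE 0.11, adjusted p = 0.049). The other 17 were not called in either.

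Of 13 genes of the mitochondrial unfolded protein response and proteases, all were below 0 against Renilla (median -0.24) and 12 against mock (median -0.23). Trap1, a mitochondrial chaperone of the HSP90 family, was the 1 called, at 85.7 to 89.7 FPKM with Renilla, 84.2 to 89.8 with mock and 64.0 to 82.3 with the guides (log2 -0.32 and -0.31, SE 0.06, limma adjusted p = 0.0022 and 0.0032). Leaving out replicate 3 of both e12.3 and e21.1, the counts called lower were 7 against Renilla and 6 against mock, while the share of all tested genes called lower went from 3.21 to 7.07% and from 2.16 to 6.31%. Of 10 transcriptional regulators of these genes, 1 was called: Ppard, a nuclear receptor of fatty acid oxidation, rose by 0.54 against Renilla and 0.51 against mock (SE 0.12, limma adjusted p = 0.0065 and 0.011). It was at 12.5 to 15.0 FPKM in the 6 controls and at 12.9 to 25 with the guides, where only e20.1 replicate 2, at 12.9, lay in the control range. Of 8 mitochondrial antioxidant enzymes, 0 were called against either control.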

How the data were processed

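Values are FPKM as deposited by the authors, in 1 table of 18 libraries; 15 libraries also had their own file, equal within 3.3e-06 FPKM apart from 25 gene names that differ. Per the submitters' processing notes, bcl2fastq 2.22.0.422, Salmon 0.13.0, DESeq2 1.22.1, R 3.5.3 and mm10 were used, with roles not stated. From these, log2(FPKM + 1) was fitted with limma 3.58.1 (R 4.3.3, trended variance, 1 mean per group) over the 11550 genes whose mean reached 1 FPKM, with Benjamini-Hochberg adjustment over all of them. No filter on libraries was applied and no sample was imputed. Depth was estimated from the steps of low FPKM values, of which 95.6 to 99.6% lay within 0.1 of a whole read. The script was tested on simulated data.

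Members and gene lists were chosen with earlier results of these data known. The rule for named genes took called members, the 13 mitochondrial genes, the highest and lowest difference against Renilla in each complex, 10 well-known subunits, the tissue isoforms of complex IV and up to 4 called genes of each other list. Other genes named (Ndufaf4, the fifth called gene of a list, those called against mock only) and the libraries singled out were chosen after values were seen. The other lists were respiratory chain genes and assembly factors outside the name rule, mitochondrial DNA and RNA handling, regulators, tricarboxylic acid cycle, unfolded protein response, antioxidant, and myeloid, erythroid, lymphoid and stromal markers. Some genes of these lists are not reported here by name. Same-number libraries correlated above 0.1 in all 3 pairs for 4 of 15 pairs of groups, among them e12.4 with Renilla and with mock. Counts with the block are given beside the e12.4, e20.1 and e21.1 results. Positions are from GENCODE M21 (GRCm38). Alternatives included other pseudocounts, filters, scalings and controls, a replicate block, and leaving out libraries or guides.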

Additional observations from a re-analysis of the deposited data

How the results depend on the processing

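No named member changed direction while called in the comparisons of the 4 guides together with Renilla or mock. Direction was not checked in this way for the set counts or for single guides. Of the counts over both sets, 541 stayed within 1.5 times under an alternative and 125 moved. The 541 include counts of 0 that stayed 0, so they do not measure how stable the counts above 0 were. With 1 of the 18 libraries left out, the nuclear count of the 4 guides moved in 6 fits against Renilla and in 14 against mock. With Renilla and mock as 1 control, 7 nuclear members were called for the 4 guides (4 against Renilla alone), where the share of all genes called went from 11.0 to 18.3%. At a stricter filter (5 FPKM in 3 libraries), 1 nuclear member was called against mock (9.17% of all genes). Against Renilla 1 mitochondrial member each was called with e12.4 (7.23%) and e21.1 (9.53%). With no filter, the mitochondrial count against Renilla was 0 (5.48% of 23899 genes). The nuclear counts against mock were 1 for the 4 guides (4.41%), 0 for e12.4 (3%), 0 for e20.1 (2.47%) and 1 for e21.1 (3.51%). Fitting only the groups compared gave 2 nuclear calls against Renilla (8.7% of all genes), 2 with e12.4 (10%) and 1 with e20.1 (3.73%); against mock, e12.4 gave 19 nuclear and 4 mitochondrial calls (2318 of 11550 genes called) and e21.1 gave 0 (3.75%). A pseudocount of 0.1 gave 1 nuclear call against mock (9% of all genes). Rescaling without mitochondrial rows gave 1 mitochondrial call against Renilla (9.16%) and 4 nuclear calls against mock (7.38%). Against Renilla it gave 1 mitochondrial call with e12.4 (5.97%), 1 nuclear with e20.1 (4.13%) and 2 with e21.1 (7.59%). Upper-quartile scaling gave 2 nuclear calls against Renilla with e12.4 (7.28%) and 2 with e21.1 (9.57%).

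Same-number libraries tended to deviate together, to an unequal degree. Of 45 same-number pairs, 26 had a correlation above 0.1 (from -0.248 to 0.763), and 17 of 18 libraries correlated best with their own number. The main fit leaves the replicate number out. With the replicate number as a block, nuclear calls were 4 against mock for the 4 guides, 4, 2 and 8 with e12.4, e20.1 and e21.1 against Renilla, and 2 and 4 with e20.1 and e21.1 against mock. The shares of all genes called were then 12.6%, then 10.4, 8.56 and 14.3%, and 7.84 and 10.3%. The same-number pairs of e20.1 and e21.1 with either control did not all exceed 0.1.

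Leaving out each replicate in turn gave 0 to 7 nuclear and 0 to 5 mitochondrial calls against Renilla and 0 to 4 nuclear calls against mock. In those fits 7.05 to 13% of all genes were called against Renilla and 5.02 to 11% against mock. Per guide, the nuclear ranges were 0 to 6, 0 to 2 and 0 to 4 with e12.4, e20.1 and e21.1 against Renilla and 0 to 3, 0 to 1 and 0 to 3 against mock, and the mitochondrial range was 0 to 1 with e12.4 and e21.1 against Renilla. Without guide e12.4, nuclear calls were 2 against Renilla (9.98% of all genes) and 1 against mock (7.81%). Without e20.1 there was 1 against mock (8.55%), and without e21.1 there were 2 against Renilla (8.74%) and 1 against mock (7.32%). In a setting chosen after seeing the data, without Renilla replicate 1 and e20.1 replicate 2, there were 0 nuclear and 0 mitochondrial calls against Renilla, 6 and 1 against mock, and with e12.4 0 nuclear calls against Renilla and 5 against mock; 8.39 and 11.8% of all genes were called against Renilla and mock, and with e12.4 5.81 and 9.15%. Leaving out replicate 3 of both e12.3 and e21.1, nuclear calls against mock were 4; per guide they were 1, 5, 2 and 1 (e12.3, e12.4, e20.1, e21.1) against Renilla and 1, 4 and 2 (e12.3, e12.4, e20.1) against mock, with 1 mitochondrial call for e12.4 against Renilla; 16.3% of all genes were called against mock, per guide against Renilla 6.14, 13.4, 11.2 and 10.8%, and against mock 5.7% with e12.3, 1416 genes with e12.4 and 10.6% with e20.1. Each group has 3 libraries, which limits the precision.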
